A study of Mus musculus with 4 samples.

Results

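The 10 genes described here encode matrix metalloproteinases (MMPs), zinc-dependent proteases that cut collagens and other proteins of the extracellular matrix. They were chosen by name, as the genes Mmp2, Mmp3, Mmp9, Mmp10, Mmp11, Mmp13, Mmp14, Mmp16, Mmp19 and Mmp23, and they are 10 of 19938 genes named on the array. Each was measured by 1 feature, and 0 features shared a member with another gene. Cells of MC3T3-E1, a pre-osteoblast line from the calvaria (skull vault) of C57BL/6 mice, were profiled on 4 Affymetrix arrays with 1 array per group. The groups were cells given 100 µM citalopram, a selective serotonin reuptake inhibitor, for 7 days, untreated control cells at day 7, cells given 100 µM citalopram for 3 days, and untreated control cells at day 3. All 4 groups grew in proliferation medium, the culture medium held 1% serum, and no label names a mineralising medium. The series title gives osteogenesis under citalopram as its subject. Cells were treated in 6-well plates, with 3 wells untreated and 3 treated.

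MMPs are made as inactive proenzymes and become active when a propeptide is cut off, by furin, by plasmin or by another MMP. In bone, MMP13 is the collagenase of osteoblasts and hypertrophic chondrocytes, MMP14 works at the cell surface and activates MMP2, and tissue inhibitors of metalloproteinases (TIMPs) block the active enzymes. The collagenase and stromelysin genes are known as targets of AP-1, the dimer of Fos and Jun proteins, and Mmp13 is also a known target of the osteoblast factor Runx2.

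The values are the log2 expression values deposited for each array. A value was called above the floor when it reached the 40th percentile of the genes on its array, between 5.95 and 6.01, and the floor is not a test of detection. With 1 array per group, a difference at a single day or in a single treatment has no error and no test. A p-value came only from a limma fit over all 4 arrays with terms for treatment and day. Of the 8.15 degrees of freedom behind each test on the deposited values, a gene's own residuals supply 1. The rest come from limma's eBayes step, which pools the variance over the 12415 genes tested. Standard errors, intervals and p-values thus rest mostly on the spread of all tested genes. How alike a gene's own effect was across the pairs enters only in part. No label ties the 4 arrays to separate culture experiments, so the spread behind each p-value is only that between these arrays and may be technical. Values of different genes come from different probes and are not set against each other as amounts. In these bulk samples, fewer cells with a transcript and less of it per cell cannot be told apart.

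The arrays correlated with Pearson's r of 0.994 to 0.997 across genes, which are not independent replicates. Of the osteoblast lineage markers, 7 of 8 measured reached the floor on some array. The matrix protein gene Sparc was between 13.8 and 14.1, while alkaline phosphatase (Alpl) lay at the floor (5.93 to 6.09) and the bone sialoprotein gene Ibsp lay below it (5.35 to 5.58). Of the macrophage and osteoclast markers, 1 of 10 reached the floor (Cd68, 7.01 to 7.19), and Ptprc and Csf1r did not. Of the endothelial, adipocyte, myogenic and epithelial markers, 1 of 6, 1 of 6, 4 of 6 and 2 of 6 reached it, with Vwf (6.27 to 6.41), Pparg (5.90 to 6.18), Des (7.48 to 7.69) and Krt8 (6.78 to 6.95) among them.

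Mmp13 was the member that passed the test, and it fell with time in culture. Its value was 5.66 with citalopram and 5.80 in control at day 7, against 6.46 with citalopram and 6.51 in control at day 3. Both arrays of day 7 lay below both arrays of day 3, and they also lay below the floor, whereas those of day 3 lay above it. Mmp13 was 1.74-fold lower at day 7 than at day 3 with citalopram (log2 difference -0.80) and 1.64-fold lower in control (-0.71). In limma's fit the day difference was -0.76 ± 0.10 (SE, 95% interval -0.996 to -0.517), lower in both treatments, with an adjusted p of 0.0114. Mmp13 passed the floor only through day 3, where it is higher, and its day 7 values lie in the range of the dimmest 40% of genes. Dropping the treatment term gave limma's adjusted p of 0.0415 over all 4 arrays, and in that fit it was 0.155 without the citalopram array of day 3 and 0.187 without the control array of day 3. Over all alternatives run, limma's adjusted p ranged between 4.86e-06 and 0.187, and the estimate between -0.89 and -0.68.

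Because its day 7 values lie below the floor, the measured fall may be compressed, and its rank among genes is that of the deposited values only. With citalopram, 108 of 12187 genes above the floor (0.886%) had a larger fall at day 7 against day 3, and in control 63 of 12201 genes (0.516%) had one. With citalopram, 1 of the 7 members above the floor, Mmp13, differed by 1.5-fold between day 7 and day 3, beside 4.81% of all genes there (2% higher and 2.81% lower). In control it was again 1 of 7, Mmp13, beside 2.29% of all genes (1.16% higher and 1.13% lower). Limma called 1 of the 7 members for day, beside 2.8% of 12415 genes (1.31% higher and 1.49% lower). With so few members, counts of 1 in 7 do not set the family apart from this background. The split of these calls depends on scaling: limma's were 163 higher and 185 lower as deposited, 459 and 1085 after quantile normalization, and 237 and 2057 after median centring.

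Mmp13 showed no called difference between citalopram and control. The difference was -0.15 at day 7, where both arrays lay below the floor, and -0.05 at day 3. Limma's estimate over both days was -0.10 (95% interval -0.34 to 0.14, adjusted p 0.893), an interval that spans 0.791 to 1.10 times the control level. Under the rescalings of the arrays the estimate stayed negative, between -0.13 and -0.09.

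The start of the Mmp13 gene is printed because AP-1 and Runx2 are known regulators of this gene and Mmp13 is the member that fell. The sequence is from RefSeq on GRCm38.p6, chr9:7272264-7272513, plus strand, the 250 bases before the annotated start. Capitals mark AACCACA, the letters of a Runx element, and TGACTCA, the letters of an AP-1 element.
Mmp13: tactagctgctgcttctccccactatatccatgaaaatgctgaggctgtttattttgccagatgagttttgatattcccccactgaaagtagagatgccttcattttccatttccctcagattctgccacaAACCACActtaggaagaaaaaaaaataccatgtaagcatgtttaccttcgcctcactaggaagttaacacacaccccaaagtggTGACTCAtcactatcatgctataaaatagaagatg
The first base of the AP-1 letters lies 35 bases before the start and that of the Runx letters 119 bases before it. The AP-1 search took TGACTCA and TGAGTCA, which are each other's reverse complement, and the Runx search took AACCACA and TGTGGTT; the letters of the Runx search were added after the sequence was seen. The matches do not overlap. The search covered 250 bases before to 50 bases after each start, and of 32851 promoters of that length, 5.20% held the AP-1 letters and 5.27% the Runx letters. A match is a description of letters and not a measured site.

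Promoters were available for 6 members, Mmp3, Mmp10, Mmp11, Mmp13, Mmp14 and Mmp23. The AP-1 letters were in 3 of them, Mmp13 and the stromelysin genes Mmp3 and Mmp10, and the Runx letters in 1, Mmp13. Of 12 other MMP genes with a promoter, 4 held the AP-1 letters and 2 the Runx letters, Mmp7 and Mmp27. Stretches of 60 bases around the match in the stromelysin genes are shown for comparison with Mmp13, with the AP-1 letters in capitals. They lie on the plus strand of GRCm38.p6 at chr9:7445742-7445801 for Mmp3 and chr9:7502262-7502321 for Mmp10, and the match starts 46 and 63 bases before the start of each gene.
Mmp3: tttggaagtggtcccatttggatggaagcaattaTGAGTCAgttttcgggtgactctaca
Mmp10: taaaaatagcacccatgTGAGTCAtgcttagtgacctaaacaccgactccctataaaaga
Both stromelysin genes lay below the floor on every array, so no change was read from them. The role of these letters was not tested.

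**Figure D1:**
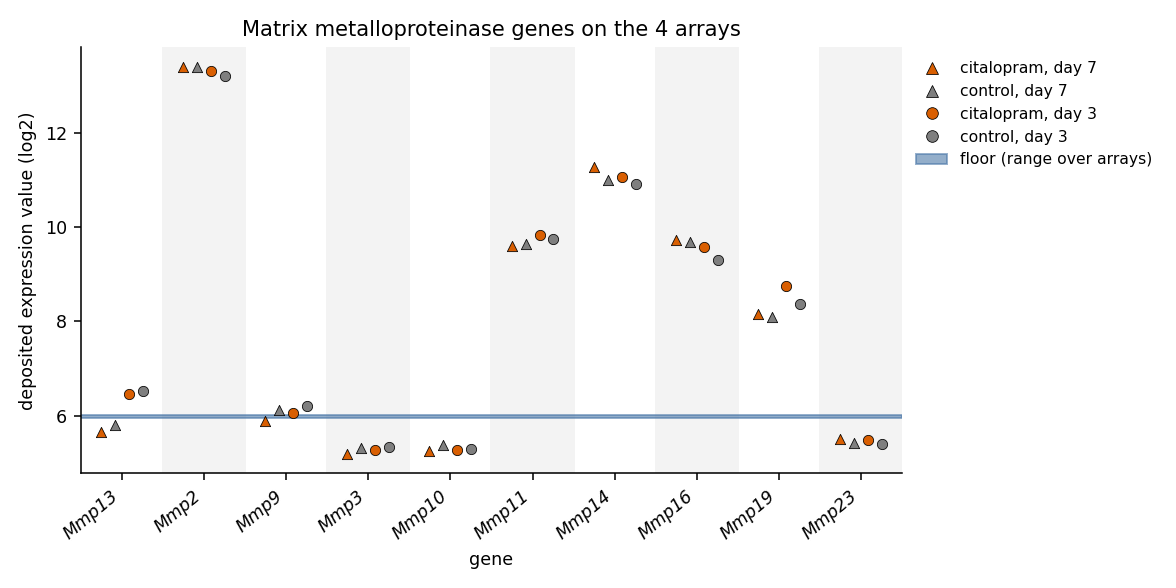
Deposited log2 expression values of the 10 MMP genes, 1 point per array (citalopram orange, control grey, day 7 triangles, day 3 circles), with the range of the floor over arrays as a blue band. Mmp13 lies at 5.66 and 5.80 at day 7 and at 6.46 and 6.51 at day 3, and Mmp3, Mmp10 and Mmp23 lie under the band on every array.

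Mmp13 is the end gene of a cluster of 10 MMP genes on chromosome 9, with 0 other protein-coding genes between them in the RefSeq table of GRCm38.p6. The order is Mmp13, Mmp12, Mmp1b, Mmp3, Mmp1a, Mmp10, Mmp8, Mmp27, Mmp20 and Mmp7. None of the other 9 genes reached the floor on any array, with values from 4.55 to 5.48. No change was read from values below the floor, so a fall in these genes could not have been seen here. Of the 10 promoters of the cluster, 7 held the AP-1 letters and 3 the Runx letters, those of Mmp13, Mmp27 and Mmp7.

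**Figure D2:**
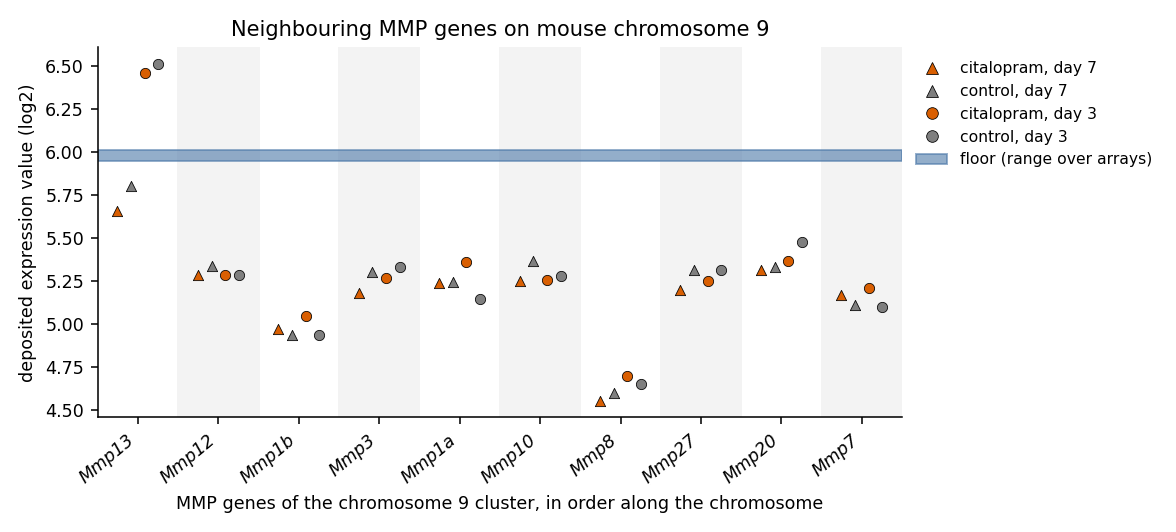
Deposited log2 expression values of the 10 MMP genes of the chromosome 9 cluster, in their order along the chromosome, 1 point per array (citalopram orange, control grey, day 7 triangles, day 3 circles), with the floor as a blue band. Mmp13 is above the band at day 3 only, and the other 9 genes stay between 4.55 and 5.48.

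The stromelysins MMP3 and MMP10 cut proteoglycans and fibronectin and can activate other proMMPs. Mmp3 was at 5.18 with citalopram and 5.30 in control at day 7, and at 5.27 with citalopram and 5.33 in control at day 3. Mmp10 was at 5.25 with citalopram and 5.37 in control at day 7, and at 5.26 with citalopram and 5.28 in control at day 3. All 8 of these values lie below the floor, so no change was read from them and neither gene entered the fit.

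The gelatinases MMP2 and MMP9 cut denatured collagen and type IV collagen. Mmp2 was well above the floor, at 13.4 with citalopram and 13.4 in control at day 7, and at 13.3 with citalopram and 13.2 in control at day 3, a total range of 0.20. Citalopram differed from control by 0.00 at day 7 and 0.10 at day 3, and limma's estimate was 0.05 (95% interval -0.19 to 0.29, adjusted p 0.959). Day 7 differed from day 3 by 0.10 with citalopram and 0.19 in control (limma 0.14 ± 0.10 SE, adjusted p 0.492), and centring each array on its median turned the day difference with citalopram and the citalopram difference of day 7 negative.

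Mmp9, by contrast, sat at the floor. It was at 5.87 with citalopram and 6.12 in control at day 7, and at 6.06 with citalopram and 6.20 in control at day 3. The difference between citalopram and control was -0.24 at day 7 and -0.13 at day 3, and the citalopram array of day 7 held the only Mmp9 value below the floor. Limma's estimate for citalopram was -0.19 (95% interval -0.43 to 0.05, adjusted p 0.680), so the difference did not pass the test.

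The membrane-type enzymes MMP14 and MMP16 are anchored in the cell membrane and can be activated by furin. Mmp14 was at 11.286 with citalopram and 11.003 in control at day 7, and at 11.078 with citalopram and 10.924 in control at day 3. Both citalopram values were above the control value of their day, by 0.28 at day 7 and 0.15 at day 3. Limma's estimate was 0.22 ± 0.11 (SE, 95% interval -0.02 to 0.46), with an unadjusted p of 0.0710 and an adjusted p of 0.610, which did not pass. Mmp14 differed between day 7 and day 3 by 0.21 with citalopram and by 0.08 in control (limma's adjusted p 0.499), and the control difference turned negative when arrays were centred on their medians.

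Mmp16 was at 9.72 with citalopram and 9.69 in control at day 7, and at 9.58 with citalopram and 9.30 in control at day 3. The control array of day 3 was the lowest, and the other 3 lay within 0.14 of each other. Citalopram thus differed from control by 0.03 at day 7, a value whose sign changed under quantile normalization and median centring, and by 0.28 at day 3. Day 7 was above day 3 by 0.14 with citalopram, which turned negative under median centring, and by 0.40 in control. Over both treatments the day difference was 0.27 ± 0.11 (SE) with limma's unadjusted p of 0.0428 and adjusted p of 0.230. Limma's estimate for citalopram was 0.16 (adjusted p 0.776).

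MMP11, or stromelysin-3, is activated inside the cell by furin and is known from stromal cells. Mmp11 was at 9.61 with citalopram and 9.64 in control at day 7, and at 9.83 with citalopram and 9.76 in control at day 3. The day 7 values were below the day 3 values in both treatments, with differences of -0.23 with citalopram and -0.12 in control, without passing the test (limma's adjusted p 0.398). For citalopram, limma's estimate was 0.02 (95% interval -0.22 to 0.26, adjusted p 0.991).

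MMP19 is a secreted enzyme that cuts basement membrane proteins, and Mmp19 had the second widest range of the members after Mmp13, 0.66 against 0.86. It was at 8.16 with citalopram and 8.09 in control at day 7, and at 8.74 with citalopram and 8.38 in control at day 3. Both day 7 values lay below both day 3 values, and the citalopram array of day 3 stood highest. The difference between day 7 and day 3 was -0.581 with citalopram, just short of the 1.5-fold mark of 0.585 on the log2 scale, and -0.29 in control. Limma's day estimate was -0.44 ± 0.11 (SE, 95% interval -0.70 to -0.17), with an unadjusted p of 0.00505 and an adjusted p of 0.0844 on the deposited values. Rescaling raised limma's day calls from 348 genes as deposited to 1544 after quantile normalization, 2294 after median centring and 1018 after cyclic loess. Median centring shifted the median day difference of all genes by -0.15 with citalopram and -0.11 in control. Under these settings Mmp19 also passed the threshold, with limma's adjusted p at 0.00517 after quantile normalization, 0.00200 after median centring and 0.0260 after cyclic loess. Over all alternatives it ranged between 0.00200 and 0.558.

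With citalopram, Mmp19 was higher than control by 0.37 at day 3, the largest citalopram difference of any member, and 409 of 12196 genes (3.35%) were higher by more. At day 7 the difference was 0.08, and its sign changed under quantile normalization. Limma's estimate over both days was 0.22 (95% interval -0.04 to 0.49, adjusted p 0.648). The day 7 difference minus the day 3 difference was -0.29, which was not tested.

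MMP23 differs from the other members in lacking the hemopexin domain. Mmp23 was at 5.50 with citalopram and 5.42 in control at day 7, and at 5.47 with citalopram and 5.40 in control at day 3. All 4 values lie below the floor, within a range of 0.10.

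No member differed by 1.5-fold between citalopram and control. At day 7 this was 0 of the 6 members above the floor in that comparison, beside 1.5% of 12167 genes (0.559% higher and 0.945% lower). At day 3 it was 0 of 7, beside 0.804% of 12196 genes (0.5% higher and 0.303% lower). The median difference of these members was 0.02 at day 7, against 0.01 for all genes above the floor, and 0.10 at day 3, against 0.03 for all genes. The day 7 median turned negative under quantile normalization and median centring (-0.01 and -0.04). Limma called 0 of the 7 members for citalopram, beside 0% of 12415 genes. At an unadjusted p under 0.05 it had 1119 of 12415 genes and 0 of 7 members for citalopram. For day it had 2496 of 12415 genes (1021 higher and 1475 lower) and 3 of 7 members. These were Mmp13 and Mmp19, both lower, and Mmp16, which was higher. The unadjusted counts were not tested against each other. The widest 95% bounds of the citalopram estimates over the 7 members were 1.40-fold higher (Mmp19) and 0.743 times control (Mmp9). The median day difference of the members was -0.19 with citalopram, against -0.04 for all genes, and -0.08 in control, against -0.01. Over all 10 members, those below the floor included, it was -0.05 with citalopram and -0.00435 in control.

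**Figure D3:**
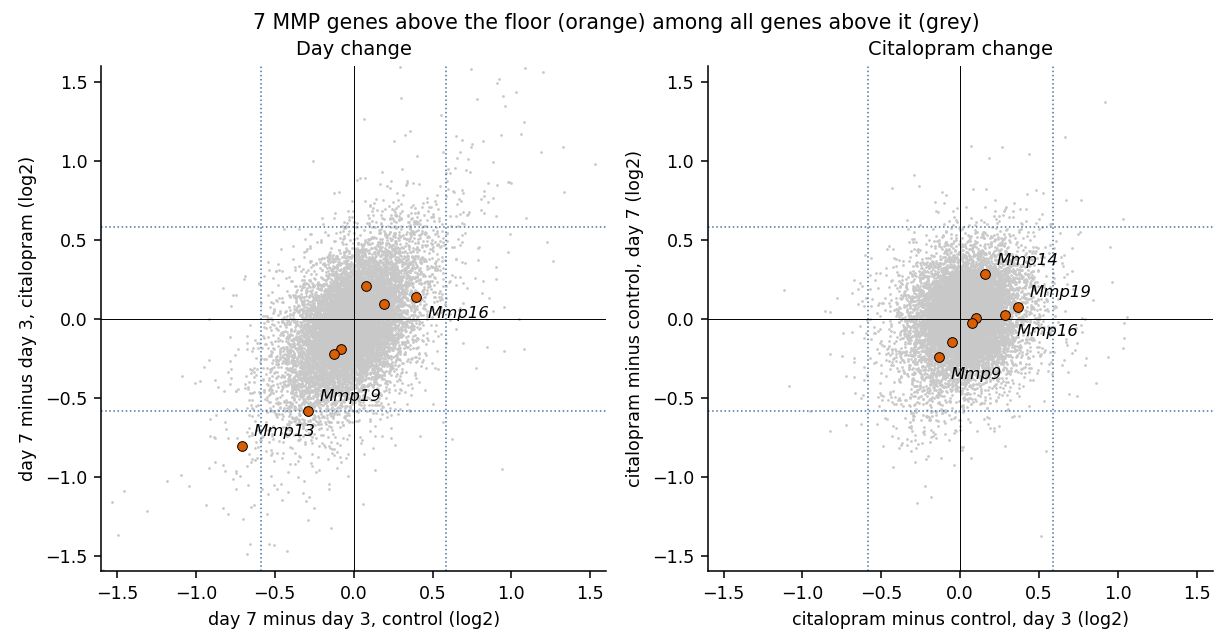
Log2 differences between day 7 and day 3 (left, with citalopram on the vertical and control on the horizontal axis) and between citalopram and control (right, day 7 on the vertical and day 3 on the horizontal axis) for the 12415 genes of limma's fit (grey), with the 7 MMP genes among them in orange and dotted lines at 1.5-fold. Mmp13 lies past the dotted lines on both axes of the left panel and no member does so on either axis of the right panel; 28 genes lie outside the left axes.

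**Figure D4:**
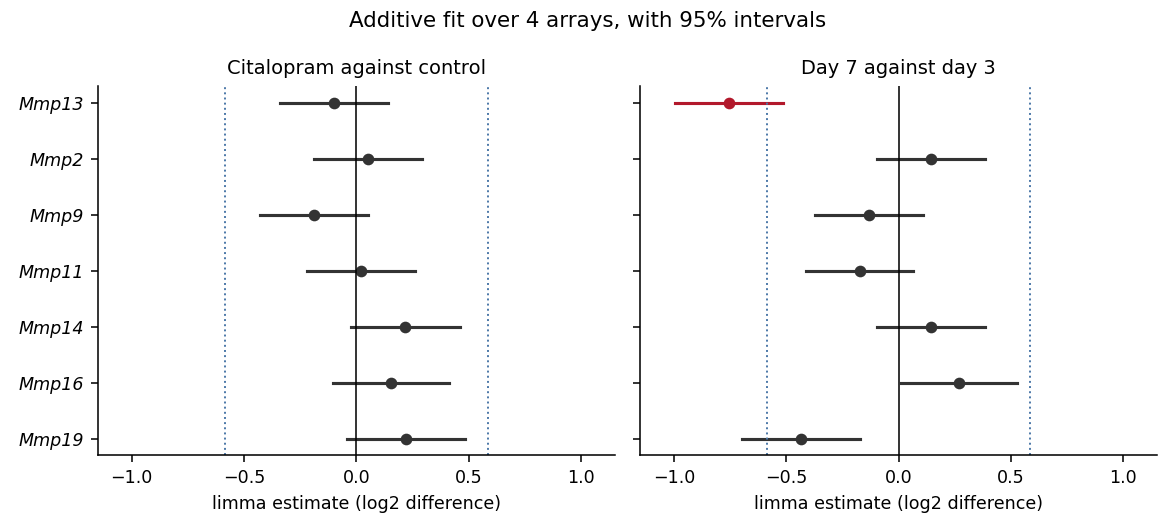
Limma's estimates (points) with 95% intervals (lines) for the 7 MMP genes above the floor, for citalopram against control (left) and day 7 against day 3 (right), on the log2 scale, with dotted lines at 1.5-fold and the gene called in red. The Mmp13 day estimate is -0.76, and every citalopram interval includes 0.

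Most other MMP genes lay below the floor. Of 12 other measured MMP genes, Mmp28 and Mmp24 reached it, and 0 passed 1.5-fold in any of the 4 comparisons. Mmp28, the gene of epilysin, was at 9.33 with citalopram and 8.90 in control at day 7, and at 9.23 with citalopram and 8.77 in control at day 3. Both citalopram arrays lay above both control arrays, by 0.43 at day 7 and 0.46 at day 3, with limma's unadjusted p of 0.00237 and adjusted p of 0.319, which did not pass.

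Of the 8 inhibitor genes measured, 5 reached the floor and 0 passed 1.5-fold in any comparison, and limma called 0 of the 5 for day or for citalopram on the deposited values. After quantile normalization it called Timp3 as higher at day 7. Timp1, Timp2 and Timp3 were high on every array, at 13.3 to 13.7, 13.5 to 13.7 and 12.9 to 13.5. Timp3, whose product is held in the matrix, differed between citalopram and control by 0.24 at day 7 and 0.32 at day 3. Reck, a membrane-bound MMP inhibitor, was between 9.81 and 10.1.

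Of the 6 genes of proMMP activation above the floor, limma called 2, both lower at day 7. Of all 12415 genes it called 2.8% for day (1.31% higher and 1.49% lower). No list was tested against this background. Furin, the convertase that cuts the propeptides of Mmp11, Mmp14, Mmp16 and Mmp23 products, fell (-0.63 with citalopram and -0.46 in control, limma's adjusted p for day 0.0425). Plat, tissue plasminogen activator, fell as well (-0.65 and -0.41, adjusted p 0.0488). The urokinase receptor gene Plaur was at -0.63 with citalopram and -0.35 in control (adjusted p 0.0624), and the convertase gene Pcsk6 at 0.59 and 0.26 (0.0965). Limma also called Plaur as lower under all 3 rescalings of the arrays (adjusted p 0.000741 to 0.0180) and Pcsk6 as higher under cyclic loess (0.0465).

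Of the 15 transcription factor genes measured, limma called 0 for day and 0 for citalopram on the deposited values, and Runx2 was not analysed here. After rescaling it called 1 for citalopram, Fosb, under each of the 3 rescalings. For day it then called 3 after quantile normalization, 3 after median centring and 1 after cyclic loess. The AP-1 subunit gene Fosb was higher with citalopram by 1.38 at day 7 and 0.91 at day 3. Limma's adjusted p for this was 0.249 as deposited and 7.54e-06 to 0.00111 under the 3 rescalings. A link between Fosb and Mmp13 was not tested. Etv4, an Ets family factor gene, was at -0.68 at day 7 against day 3 with citalopram and -0.25 in control (limma's adjusted p for day 0.0955 as deposited and 0.00171 to 0.0192 under the 3 rescalings). Hif1a was between 11.8 and 12.2.

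Among 9 inducer and receptor genes above the floor, limma called 1 for day, beside 2.8% of 12415 genes. It was Fgf2, a growth factor gene, which fell (-1.18 with citalopram and -0.93 in control, adjusted p 0.00398). Under each of the 3 rescalings limma called 4 as lower, Fgf2, Il6, Pth1r and Tgfb1. It called 1 as higher, Ddr1, after quantile normalization and after cyclic loess. Among all genes its day calls then rose to 1544, 2294 and 1018 after quantile normalization, median centring and cyclic loess. Pth1r was at -0.43 and -0.34 (limma's adjusted p 0.0922 as deposited). Tgfb1 was at -0.74 and -0.35 (adjusted p 0.0601 as deposited and 0.000415 to 0.0132 under the 3 rescalings). Il6, an inflammatory cytokine gene, was above the floor only on the citalopram array of day 3, at 6.29 against 5.73 in control. Limma's adjusted p for day in Il6 was 0.154 as deposited and 0.00417 to 0.0471 under the 3 rescalings. Pdgfra, a receptor gene, was higher with citalopram by 0.45 at day 7 and 0.71 at day 3 (limma's adjusted p 0.312 as deposited, 0.0164 after quantile normalization, 0.0266 after median centring and 0.0507 after cyclic loess), and Ddr2, a collagen receptor gene known as an inducer of Mmp13, was at 0.13 and 0.33.

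Of 12 genes for binding and clearance, limma called 2 for day, both higher, beside 2.8% of 12415 genes (1.31% higher and 1.49% lower). Lrp1, the endocytic receptor that clears several MMPs, rose (0.42 with citalopram and 0.98 in control, adjusted p 0.0454), as did Cldn1, a tight junction gene (0.73 and 0.65, adjusted p 0.0155). Itgb3, an integrin subunit gene, was at -0.31 and -0.63 (limma's adjusted p 0.0763 as deposited and 0.00101 to 0.0166 under the 3 rescalings), and Thbs1 was between 13.4 and 13.6. For citalopram, limma called 0 of these 12 genes as deposited, and 1, Lcn2, as lower after quantile normalization and after median centring. Lcn2 differed by -0.47 at day 7 and -0.44 at day 3 (limma's adjusted p 0.319 as deposited). It lay below the floor on both citalopram arrays. Of 18 substrate genes above the floor, limma called 3 for day, all higher, beside the same 2.8% of all genes. They were Col1a1 (0.47 and 0.68, adjusted p 0.0390), Col2a1 (0.49 and 1.22, 0.0397) and Hspg2, the perlecan gene (0.81 and 1.34, 0.00842). After median centring limma also called 3 substrate genes as lower at day 7, Col4a1, Dcn and Tnc. Among all genes it then called 237 higher and 2057 lower. After quantile normalization and after cyclic loess it called 4 substrate genes as higher and 0 as lower. Tnc, the tenascin-C gene, differed between citalopram and control by -0.60 at day 7 and -0.12 at day 3. All 8 of the day calls outside the members named as made on the deposited values were also made under the 3 rescalings. Taking the mean of all features of a gene lost Plat, Lrp1 and Col2a1. Each of these has 1 feature, so its own values did not change. The fit with day alone over all 4 arrays lost 5 of the 8, Furin, Plat, Lrp1, Col1a1 and Col2a1 (limma's adjusted p for the 8 was 0.0312 to 0.110), and the fit without a floor lost the same 5. With day alone and an array left out, it lost 8 without the control array of day 3, 7 without the citalopram array of day 3, 3 without the citalopram array of day 7 and 0 without the control array of day 7.

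Col2a1, a chondrocyte marker, rose over the days on which Mmp13 fell, and the part of such cells in the fall was not tested. Of 8 such markers, 4 reached the floor on some array, and the summed log2 level of all 8 was 53.3 with citalopram and 54.0 in control at day 7, against 53.8 with citalopram and 53.4 in control at day 3. Sox9 differed by -0.22 with citalopram and -0.09 in control, and Acan lay below the floor on all arrays. Col10a1, the hypertrophic chondrocyte collagen gene, was at 5.43 with citalopram and 5.86 in control at day 7, and at 5.88 with citalopram and 6.16 in control at day 3.

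The 5 genes whose profile over the 4 arrays was closest to that of Mmp13, by Euclidean distance of log2 values centred on each gene's mean among 12415 genes, were Prkar2a (0.0863), a regulatory subunit gene of protein kinase A, Stxbp4 (0.0874), Ankrd1 (0.0898), Med18 (0.0913), a Mediator subunit gene, and Dkc1 (0.0960), the dyskerin gene. Their day differences ran from -0.91 for Ankrd1 to -0.77 for Med18 with citalopram, and from -0.65 to -0.59 in control for the same genes. They were chosen for this likeness, over 4 arrays, and no test was made of it.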

How the data were processed

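The authors deposited 1 log2 expression value per feature and array; the log base is inferred from the range, 3.9 to 15.5. The submitters' processing notes name Partek, with no version. Background correction, normalization and summarization of probes were not given in the sources used here, and any equalising of arrays would hide shifts shared by most genes. Per the labels' protocols, wells were seeded with 50000 cells and 250 ng of RNA was labelled. Precision is limited by having 4 arrays.

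Of 35556 features, 21789 had 1 gene symbol in the platform annotation, 1621 had several and 12146 had none. A gene was represented by its feature of highest mean, and it was counted in a comparison if either array reached the 40th percentile there. Tests were made with limma 3.58.1 in R 4.3.3 (lmFit, eBayes, two-sided, Benjamini-Hochberg over genes reaching the floor on any array). The code was also run on simulated data with independent noise of equal spread for all genes. That run does not check the p-values for these arrays. Alternatives were quantile normalization, median centring, cyclic loess, the mean of a gene's features, no floor, 2-fold, an intensity trend, a fit with a single factor, and arrays left out. All members are named. From the other lists, the rule names the brightest gene and up to 6 past 1.5-fold or called by limma. Timp1, Timp3, Reck, Alpl, Ibsp, Ptprc, Csf1r, Acan and Col10a1 were added for their roles after their values were seen. Pth1r, Ddr1, Lcn2, Col4a1 and Dcn were added because limma called them after rescaling, also with their values seen. Python 3.11.15, pandas 2.3.3, numpy 2.4.6 and scipy 1.17.1 were used. Promoters are from RefSeq, and protein sequences were not used here. Members and lists were chosen with earlier results of these data known.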

Additional observations from a re-analysis of the deposited data

Results flagged for a closer look

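Mmp11 had citalopram differences of opposite sign at the days, -0.03 at day 7 and 0.07 at day 3. The day 7 difference minus the day 3 difference was -0.10 on the log2 scale, and it was not tested, since each group holds 1 array.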

How the results depend on the processing

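For citalopram, 0 members passed 1.5-fold and 0 were called by limma under every alternative run, although limma called 139, 103 and 40 genes after quantile normalization, median centring and cyclic loess, against 0 as deposited. For day 7 against day 3, no member reached 2-fold, so the count of 1 became 0 in both treatments. With citalopram, 2 members passed 1.5-fold after quantile normalization, median centring or cyclic loess, Mmp19 joining Mmp13. Limma then also called 2 members for day, of 1544, 2294 and 1018 genes, against 348 as deposited, 190 without a floor and 68 with day alone. The cause was not tested. With an array left out of the fit with day alone, limma called 0 to 1 members and 29 to 967 genes. Median centring shifted the day difference of all genes by -0.15 with citalopram and -0.11 in control, and the members' median became -0.34 and -0.19. Without a floor the median with citalopram was -0.05 (-0.0492). Genes past 1.5-fold were 53 higher and 151 lower for citalopram at day 7 after quantile normalization, and 44 and 165 after median centring, against 68 and 115 as deposited. For day they were 176 and 509, then 110 and 876, against 244 and 342 with citalopram, and 125 and 186, then 89 and 294, against 142 and 138 in control.

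Of 40 member differences, 8 changed sign under median centring, 4 under quantile normalization and 2 under cyclic loess, none over 0.14 in size as deposited. Limma's citalopram estimate for Mmp11 became -0.00899 under median centring. Leaving out an array and the day term together sets arrays of unlike days against each other, so by construction the citalopram estimate then carries part of the day difference. In those fits it changed sign without the control array of day 3 for Mmp2 (-0.0437), Mmp13 (0.256) and Mmp16 (-0.0433), without the citalopram array of day 3 for Mmp11 (-0.0903) and Mmp19 (-0.0688), without the control array of day 7 for Mmp11 (-0.0394), and without the citalopram array of day 7 for Mmp13 (0.302). Among 34 named genes of the other lists and of the profile search, 61 of 748 limma estimates changed sign, none of them called on either side (lowest adjusted p 0.132). The alternatives for the change of the citalopram effect between days were chosen after seeing the data, and its median over 7 members, -0.10, ran from -0.15 to -0.05. With an array left out, the fit with both terms has no residual degrees of freedom and was not run; the citalopram difference is then that of the day still complete. No paired analysis was possible because each group holds 1 array, so the groups share only replicate number 1; this concerns replicate numbers, and the fit with both terms already compares treatments within days.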
